A study of Homo sapiens with 24 samples.

Results

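The 41 DNA replication and S-phase genes are the rows of the gene count table that carry 1 of 41 gene names, out of 58735 genes in the table. Each name had 1 gene identifier, and all 41 genes passed the filter on low counts in every comparison. They were grouped by role into origin licensing (10 genes), helicase activation (6), the sliding clamp and its loader (4), polymerases and primase (6), single-strand binding with flap and nick processing (5), deoxynucleotide supply (3), replication-coupled chromatin (3), and S-phase entry and fork control (4). The cells were OE33 and SK-GT-4, established human esophageal adenocarcinoma lines, each as a Cas9 control that carried Cas9 with an intact cGAS gene and as a knockout of cGAS (cGAS KO) made with CRISPR-Cas9. Each was grown with DMSO or with 500 nM reversine, which blocks MPS1, a kinase of the spindle assembly checkpoint, and so makes chromosomes missegregate, for 48 hours. The 8 groups had 3 libraries each, 1 from each of 3 batches that the labels name, and batches 1, 2 and 3 are given in that order wherever 3 values stand together. All cells expressed Cas9, and each genotype of a line was taken as 1 clone, so the difference between clones cannot be told apart from the loss of cGAS.

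DNA is copied once per cell cycle. In G1, the origin recognition complex, CDC6 and CDT1 load the ring of MCM2 to MCM7 onto origins, and at the start of S phase CDC45 and the GINS complex join the ring to form the active helicase. Polymerases, the PCNA clamp with its RFC loader, DNA ligase and enzymes that supply deoxynucleotides then copy the strands. Many of these genes are transcribed at the G1 to S transition under E2F transcription factors, so their mRNA is high in dividing cell populations and falls when cells leave the cycle.

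The libraries held between 15561268 and 25284177 counts, and the 41 genes together took between 0.253% and 0.573% of them. Counts of single replication genes lay between 25 and 30759, far above the floor of 3 counts. CPM stands for read counts scaled to the library size with TMM factors, and RPKM for the same per gene length. CGAS had between 28.9 and 41.6 CPM in OE33 Cas9 cells and at most 2.82 CPM in 5 of 6 OE33 cGAS KO libraries, but 15.6 CPM in cGAS KO DMSO batch 2. In SK-GT-4, it had between 14.7 and 26.1 CPM in Cas9 cells and between 2.22 and 6.09 CPM in cGAS KO cells. Libraries of SK-GT-4 Cas9 reversine batch 2 and SK-GT-4 cGAS KO DMSO batch 1 stood apart in the balance of long and short genes. The median deviation from the line's median of long protein-coding genes of at least 1 CPM (at or above the 75th percentile of length) minus that of short ones (at or below the 25th) was -0.91 and -1.08 (log2) in them, against -0.13 to 0.45 in the other 10 SK-GT-4 libraries and -0.26 to 0.22 in OE33. SK-GT-4 results are therefore given with and without these 2 libraries, and OE33 results without cGAS KO DMSO batch 2 where that moved them. Of 6 epithelial markers, KRT8 stood at 1347 CPM or more in all libraries, but the adhesion genes CDH1 and CLDN4 were at most 13.8 and 4.84 CPM in SK-GT-4 Cas9 cells, against at least 21.4 and 40.9 CPM in cGAS KO cells of that line, and at least 358 and 702 CPM in OE33. The blood markers PTPRC, CD3E and CD68 stayed under 1 CPM, while COL1A1 reached 71.6 CPM and PECAM1 9.19 CPM.

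The letters of the E2F motif (TTTGGCGC, TTTCCCGC, TTTGCCGC or TTTCGCGC, on either strand) were looked for in the RefSeq promoter windows of GRCh38.p14, which run from 250 bases before to 50 bases after each start site. Windows matched 36 of the 41 symbols, and 20 of these 36 genes (55.6%) held the letters in at least 1 window, against 1090 of all 27305 symbols (3.99%). By role, the letters were found in 6 of 8 origin licensing genes with a window, in 3 of 5 helicase activation genes, in 2 of 4 clamp and clamp loader genes and in 4 of 6 polymerase and primase genes. They were found in 2 of 4 genes of strand processing, in 0 of 3 of deoxynucleotide supply, in 1 of 3 of replication-coupled chromatin and in 2 of 3 of S-phase entry and fork control. MCM4, MCM5, GINS4, RPA2 and CCNE2 had no window in the table. The windows below belong to the genes that passed an adjusted p of 0.05 under reversine in OE33 and hold the letters, which are in capitals. Overlapping matches were each counted. Each sequence reads in the direction of transcription, 5′ to 3′.
MCM7, chr7:100101348-100101647, minus strand: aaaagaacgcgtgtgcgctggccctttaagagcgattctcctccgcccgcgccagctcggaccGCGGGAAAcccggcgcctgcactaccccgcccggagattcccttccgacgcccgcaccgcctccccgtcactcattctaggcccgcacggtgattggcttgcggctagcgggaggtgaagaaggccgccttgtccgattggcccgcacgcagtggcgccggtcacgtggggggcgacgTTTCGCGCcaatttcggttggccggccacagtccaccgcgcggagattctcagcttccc
RFC3, chr13:33817899-33818198, plus strand: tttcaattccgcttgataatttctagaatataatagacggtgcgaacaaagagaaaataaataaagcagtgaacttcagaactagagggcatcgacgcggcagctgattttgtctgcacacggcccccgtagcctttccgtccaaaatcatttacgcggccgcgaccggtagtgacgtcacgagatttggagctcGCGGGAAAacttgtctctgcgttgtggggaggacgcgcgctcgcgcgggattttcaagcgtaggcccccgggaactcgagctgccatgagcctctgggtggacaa
POLA2, chr11:65261712-65262011, plus strand: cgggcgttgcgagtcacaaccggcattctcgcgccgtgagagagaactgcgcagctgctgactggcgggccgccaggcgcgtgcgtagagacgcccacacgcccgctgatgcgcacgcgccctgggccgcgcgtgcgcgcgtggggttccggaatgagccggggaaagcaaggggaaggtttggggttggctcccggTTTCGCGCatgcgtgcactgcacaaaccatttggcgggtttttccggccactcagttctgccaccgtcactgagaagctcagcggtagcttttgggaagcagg
POLE2, chr14:49688165-49688464, minus strand: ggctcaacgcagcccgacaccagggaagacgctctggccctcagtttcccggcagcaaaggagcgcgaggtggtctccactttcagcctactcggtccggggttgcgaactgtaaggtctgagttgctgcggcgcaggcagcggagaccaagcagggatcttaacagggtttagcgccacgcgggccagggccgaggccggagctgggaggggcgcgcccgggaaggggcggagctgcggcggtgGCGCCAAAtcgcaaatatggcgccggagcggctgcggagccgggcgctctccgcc
LIG1, chr19:48170295-48170594, minus strand: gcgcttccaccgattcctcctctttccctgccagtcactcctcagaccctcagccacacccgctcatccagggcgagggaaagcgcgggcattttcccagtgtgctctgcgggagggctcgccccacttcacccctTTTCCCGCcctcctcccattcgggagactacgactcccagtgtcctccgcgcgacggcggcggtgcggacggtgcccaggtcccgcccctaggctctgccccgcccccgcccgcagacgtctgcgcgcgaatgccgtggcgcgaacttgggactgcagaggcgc
The MCM7 window held 2 matches, 187 and 9 bases before the start site, and was 1 of 3 windows of that gene. The match lay 55 bases before the start of RFC3, 53 before that of POLA2, 5 before that of POLE2 and 114 before that of LIG1. CDC45 and RRM2, the other 2 genes of this kind, held none of these letters in their windows.

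In DMSO-treated Cas9 cells of both lines, the clamp PCNA was the most abundant replication gene per length and the fork checkpoint adaptor CLSPN had the lowest mean (levels as RPKM, mean ± SD, n = 3). PCNA stood at 325 ± 22.2 RPKM in OE33 and 335 ± 39.5 RPKM in SK-GT-4. CLSPN stood at 1.21 ± 0.149 RPKM and 1.26 ± 0.0609 RPKM, and its OE33 libraries overlapped those of the next gene, CCNE2. In OE33, the helicase subunit MCM7 came next to PCNA at 266 ± 31.8 RPKM, followed by thymidine kinase TK1 at 146 ± 19.4 RPKM and MCM3 at 71.7 ± 6.97 RPKM. In SK-GT-4, TK1 came second at 241 ± 20.3 RPKM, then MCM7 at 96.0 ± 5.39 RPKM and MCM4 at 53.2 ± 4.59 RPKM. These first 4 were separated from one another in both lines, with no overlap of their 3 libraries. Further down, the order was mostly not resolved, since 31 of 40 neighbouring pairs overlapped in OE33 and 33 of 40 in SK-GT-4. At the low end in OE33 were cyclin CCNE2 at 1.49 ± 0.208 RPKM, GINS4 at 2.11 ± 0.378 RPKM, BRCA1 at 2.29 ± 0.316 RPKM and the polymerase α accessory subunit POLA2 at 2.35 ± 0.161 RPKM. In SK-GT-4, the catalytic polymerase subunit POLE (2.13 ± 0.202 RPKM), POLA2 (2.14 ± 0.116 RPKM) and POLA1 (3.24 ± 0.186 RPKM) were the lowest above CLSPN.

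**Figure D1:**
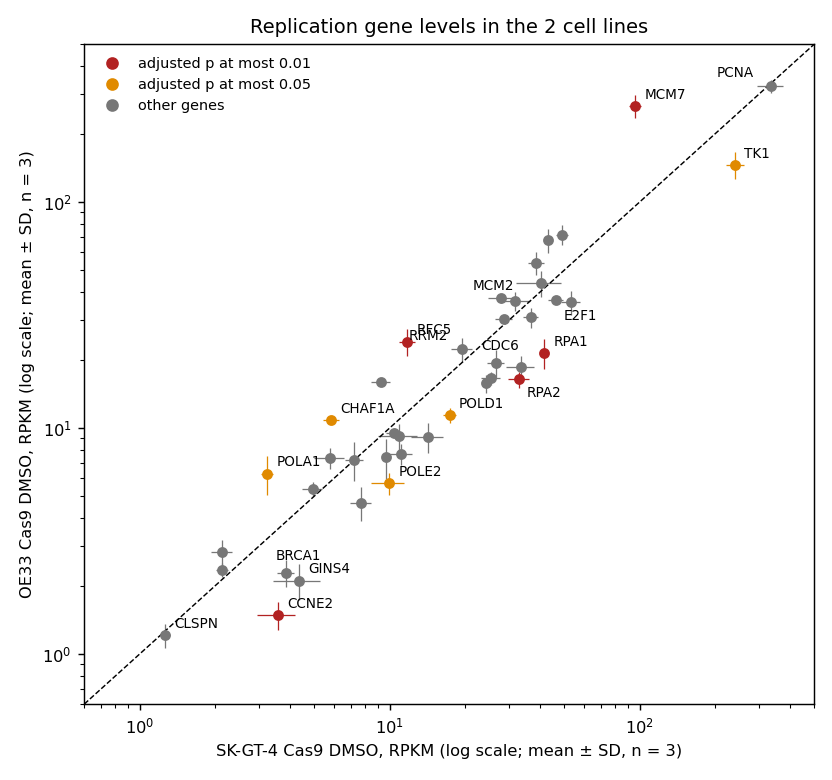
Level of the 41 replication genes per length (RPKM, log scales) in DMSO-treated Cas9 cells of SK-GT-4 (x axis) and OE33 (y axis), as mean ± SD of 3 libraries, with the dashed line at equal levels and colours by the adjusted p of the comparison. MCM7 and RFC5 lie above the line at an adjusted p of at most 0.01, while RPA1, RPA2 and CCNE2 lie below it.

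Between the lines in DMSO, OE33 Cas9 cells had more MCM7 and RFC5 and less RPA1, RPA2 and CCNE2 mRNA than SK-GT-4 Cas9 cells. MCM7 had 1093, 1327 and 1079 CPM in OE33 and 446, 419 and 399 CPM in SK-GT-4, and all OE33 libraries were above all SK-GT-4 libraries. Its log2 fold change was 1.47 ± 0.29 (± SE), with an adjusted p of 0.000265 by edgeR's quasi-likelihood test. RFC5, a subunit of the clamp loader, had 72.0, 90.8 and 72.1 CPM against 37.0, 36.3 and 41.5 CPM, a log2 fold change of 1.03 ± 0.24 (adjusted p = 0.00176). The single-strand binding proteins RPA1 and RPA2 were lower in OE33 by log2 fold changes of -0.95 ± 0.21 (adjusted p = 0.000823) and -1.01 ± 0.22 (adjusted p = 0.000985). RPA2 had 36.0, 33.0 and 30.4 CPM in OE33 and 74.1, 63.7 and 62.0 CPM in SK-GT-4, with no overlap. CCNE2, a cyclin of S-phase entry, had 7.09, 5.49 and 7.06 CPM against 12.6, 16.6 and 17.8 CPM, a log2 fold change of -1.26 ± 0.35 (adjusted p = 0.0069). At an adjusted p of at most 0.01, 2 of the 41 genes were higher and 3 lower in OE33, next to 9.63% and 12.4% of all 25181 genes tested. At 0.05, 10 of 41 were called against 31% of all genes, no larger a share than the background. The added genes at 0.05 were POLA1 (0.95) and CHAF1A (0.89), higher in OE33, and POLD1 (-0.61), POLE2 (-0.80) and TK1 (-0.72), lower in OE33. Chromosome medians of genes of at least 1 CPM also differed between the lines. They were 0.59 on X, which holds POLA1, and -0.35 on chromosome 19, which holds POLD1 and also CHAF1A, which went the other way. Their part was not tested. GINS4 had a log2 fold change of -1.04 ± 0.48 (adjusted p = 0.107), lower in OE33 in 3 of 3 batches. The labels do not say that the lines share batches, so batches of the lines were matched here by number only. The median of the 41 was -0.12, beside -0.14 over all genes tested. Of the 12 genes named in every comparison (MCM2, MCM7, CDC6, CDT1, CDC45, PCNA, POLA1, RRM2, TK1, E2F1, CCNE2 and BRCA1), values reached from -1.26 (CCNE2) to 1.47 (MCM7). The count of 5 called genes was 0 without batch 3 and 2 without batch 1 or without batch 2. Shares of all genes in these settings are not given, so the lower counts are not read as particular to the 41. Without the 2 SK-GT-4 libraries that stood apart, 12 were called, next to 28.6% of all genes.

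Replication gene mRNA was slightly lower in reversine than in DMSO in OE33 Cas9 cells, and fold changes of nearly all 41 genes lay on the same side. The mean log2 CPM of the 41 genes was 5.98, 6.04 and 5.88 in DMSO and 5.88, 5.83 and 5.57 in reversine, lower in 3 of 3 batches, though the groups overlapped. Log2 fold changes were below 0 for 40 of 41 genes, with a median of -0.22 beside 0.00 over all 20426 genes tested. Of 12965 genes of at least 1 CPM, 54.9% were below 0. The 41 genes correlated with one another across libraries, so their counts are not 41 separate observations. In single batches, the median difference of the 41 was -0.11, -0.23 and -0.28. At an adjusted p of at most 0.01, 0 of 41 were called lower by edgeR, next to 0.157% of all genes, and 0 by DESeq2, next to 0.152%, while at 0.05 the genes MCM7, POLA2 and LIG1 were called, 3 of 41 next to 0.627%. At an unadjusted p under 0.05, 19 of 41 were lower, next to 6.17%, and none was higher. 29 of 41 genes were lower in 3 of 3 batches, against 15.5% of all genes, and for 9 of 41 every reversine library lay below every DMSO library, against 3.9%. Shares of all genes, here and below, also cover genes under 1 CPM, a level that all 41 genes exceeded. They were not matched for expression level. Mitochondrial genes took 1.96%, 1.34% and 6.58% of the counts in DMSO and 2.31%, 1.60% and 8.94% in reversine, higher in 3 of 3 batches, and their part in these differences was not tested. In bulk RNA, fewer cells in S phase and less of this mRNA in each cell cannot be told apart.

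**Figure D2:**
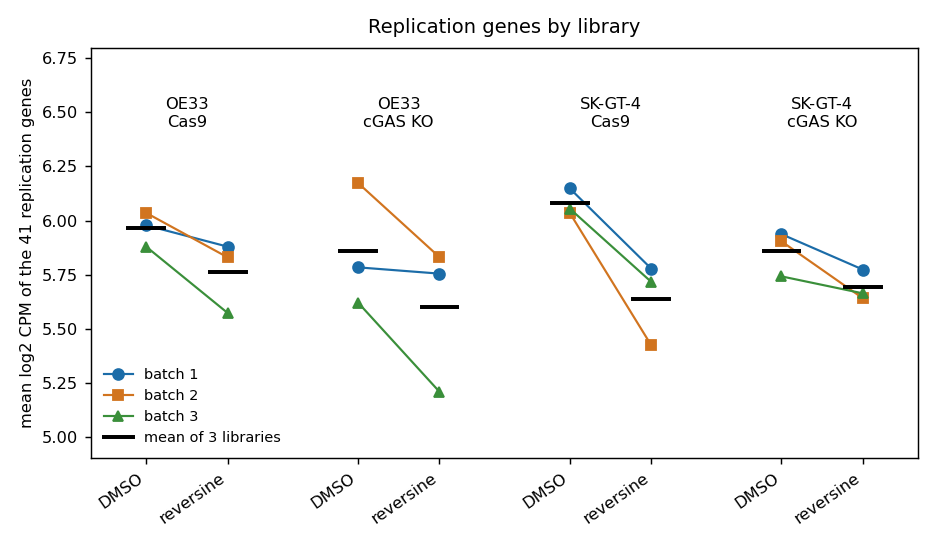
Mean log2 CPM of the 41 replication genes in each of the 24 libraries (y axis), by cell line, genotype and treatment (x axis). Lines join DMSO and reversine of the same batch, and black bars are means of 3 libraries. All 12 lines slope downward from DMSO to reversine, and in both OE33 genotypes the batches of reversine libraries differ by more than the treatment means do.

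Of the licensing genes in OE33 Cas9 cells, MCM7 differed most. It had 1093, 1327 and 1079 CPM in DMSO and 882, 1039.9 and 819.5 CPM in reversine, with no overlap, a log2 fold change of -0.38 ± 0.10 (adjusted p = 0.0454). The other 9 licensing genes lay between -0.30 for ORC1, the largest origin recognition subunit, and -0.06 for ORC6. Among them, the MCM loaders CDC6 and CDT1 had values of -0.16 and -0.25, and MCM2 of -0.20. Helicase activators lay between -0.37 for CDC45 and -0.03 for GINS3, with CDC45 at 43.8, 50.2 and 47.4 CPM in DMSO and 34.7, 43.1 and 34.3 CPM in reversine (adjusted p = 0.102). The CDC45 libraries did not overlap, but the difference did not pass the threshold. PCNA had 474, 512 and 447 CPM in DMSO and 421, 425 and 416 CPM in reversine, also without overlap (-0.21 ± 0.09, adjusted p = 0.38). Its loader subunits RFC3, RFC4 and RFC5 had values between -0.22 and -0.09.

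POLA2, the accessory subunit of polymerase α, had the lowest fold change in OE33 Cas9 cells. It had 14.5, 13 and 12.9 CPM in DMSO and 10.1, 7.81 and 10.2 CPM in reversine, with no overlap (-0.55 ± 0.15, adjusted p = 0.0477). The catalytic subunits POLA1, POLD1 and POLE had values of -0.29, -0.35 and -0.25. LIG1, the ligase that joins Okazaki fragments, had 41, 58.3 and 43.6 CPM in DMSO and 34.0, 39.3 and 29.9 CPM in reversine (-0.49 ± 0.12, adjusted p = 0.0197), and its groups did not overlap. FEN1, the flap endonuclease that acts before it, had a value of -0.36 ± 0.10 (adjusted p = 0.0669). In deoxynucleotide supply, the ribonucleotide reductase subunit RRM2 had a value of -0.36, RRM1 of -0.21 and TK1 of -0.14. UHRF1, which guides maintenance DNA methylation behind the fork, had 79.2, 85.0 and 82.5 CPM in DMSO and 79.0, 59.4 and 51.0 CPM in reversine (-0.43 ± 0.13, adjusted p = 0.101). Among the genes of S-phase entry and fork control, E2F1 stood at -0.19 and the repair gene BRCA1 at -0.22. By role, medians lay between -0.38 for replication-coupled chromatin and -0.13 for single-strand binding with flap and nick processing. CCNE2 alone had a value above 0, 0.13 ± 0.18, which went below 0 without batch 1.

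Without OE33 cGAS KO DMSO batch 2, a library outside these 2 groups that enters the shared estimate of spread, 9 of 41 genes were called lower at 0.01 in the Cas9 cells, next to 1.77% of all genes. They were MCM7, CDC45, POLA2, POLD1, FEN1, LIG1, RRM2, CHAF1A and UHRF1, with adjusted p between 9.37e-05 for LIG1 and 0.00972 for POLD1. CHAF1A is a subunit of the histone chaperone that packs new DNA. Before adjustment, at p under 0.05, 24 of 41 were then lower, next to 8.84%, and the median log2 fold change was -0.22. The fold changes hardly moved, while the calls did.

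In OE33 cGAS KO cells, log2 fold changes of all 41 genes were below 0 with reversine, and MCM7 fell. The call of MCM7 was lost without any 1 of the 3 batches, without cGAS KO DMSO batch 2 alone, with a batch block shared by both genotypes or no block, and with filterByExpr, a stricter filter on low counts. The mean log2 CPM of the 41 genes was 5.78, 6.17 and 5.62 in DMSO and 5.75, 5.83 and 5.21 in reversine, lower in 3 of 3 batches. The median log2 fold change was -0.28 beside 0.01 over all genes tested. Of 12965 genes of at least 1 CPM, 51.4% were below 0. Batch medians were -0.07, -0.32 and -0.42, with 27, 35 and 41 genes below 0, so that batch 1 differed less than the other batches. The batch 2 pair holds the DMSO library that had 15.6 CPM of CGAS. At an adjusted p of at most 0.01, 1 of 41 was called lower by edgeR, next to 0.152% of all genes, and 1 by DESeq2, next to 0.0881%. At 0.05, 5 of 41 were called (MCM7, CDC45, RFC3, POLE2 and RRM2), next to 0.578%. With p under 0.05 and no adjustment, 27 of 41 were lower, next to 5.62%. 22 of 41 were lower in 3 of 3 batches, next to 13.1%, but reversine libraries lay wholly below DMSO libraries for 1 of 41 (POLD1), next to 2.16%. The mitochondrial share was 1.69%, 2.09% and 5.10% in DMSO and 2.04%, 1.38% and 6.78% in reversine, higher in 2 of 3 batches.

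MCM7 had 843, 1463 and 703 CPM in DMSO and 749, 877 and 503 CPM in reversine. It was lower in 3 of 3 batches, while the groups overlapped, since reversine batches 1 and 2 lay above DMSO batch 3. Its log2 fold change was -0.48 ± 0.10 (adjusted p = 0.00805), and it was -0.38 ± 0.10 in Cas9 cells. CDC45 had 44.5, 58.3 and 37.6 CPM in DMSO and 36.9, 39.2 and 24.6 CPM in reversine (-0.50 ± 0.11, adjusted p = 0.0137). RFC3 had 98.0, 133 and 85.3 CPM and 83.3, 86.2 and 62.7 CPM (-0.45 ± 0.10, adjusted p = 0.012). These genes were lower in every batch and overlapped between groups. POLE2, the accessory subunit of polymerase ε, had 23.6, 28.4 and 19.2 CPM and 20.0, 17.6 and 13.3 CPM (-0.50 ± 0.13, adjusted p = 0.0433). RRM2 had 140.5, 144 and 113 CPM and 130.1, 114 and 60.8 CPM (-0.46 ± 0.11, adjusted p = 0.0264), and its lowest value was that of reversine batch 3. GINS3, of the GINS complex, had the lowest fold change of the 41, -0.52 ± 0.14 (adjusted p = 0.0528), but did not pass the threshold.

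The remaining named genes had smaller values in OE33 cGAS KO cells, with PCNA at -0.32, MCM2 at -0.27, CDT1 at -0.26, POLA1 at -0.25, TK1 at -0.24, BRCA1 at -0.22, CDC6 at -0.11, CCNE2 at -0.08 and E2F1 at -0.04. By role, the medians were lowest for helicase activation (-0.39), replication-coupled chromatin (-0.36) and the clamp with its loader (-0.33), and highest for S-phase entry and fork control (-0.10). Without cGAS KO DMSO batch 2, which had the highest CGAS level of the cGAS KO libraries and the highest mean of the 41 genes in OE33 (6.17), 1 of 41 was called at 0.01 (RRM2 at -0.52, adjusted p = 0.000448), next to 0.208% of all genes, and MCM7 lost its call at -0.35 (adjusted p = 0.0243). At an unadjusted p under 0.05, 21 of 41 were then lower, next to 5.91%.

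**Figure D3:**
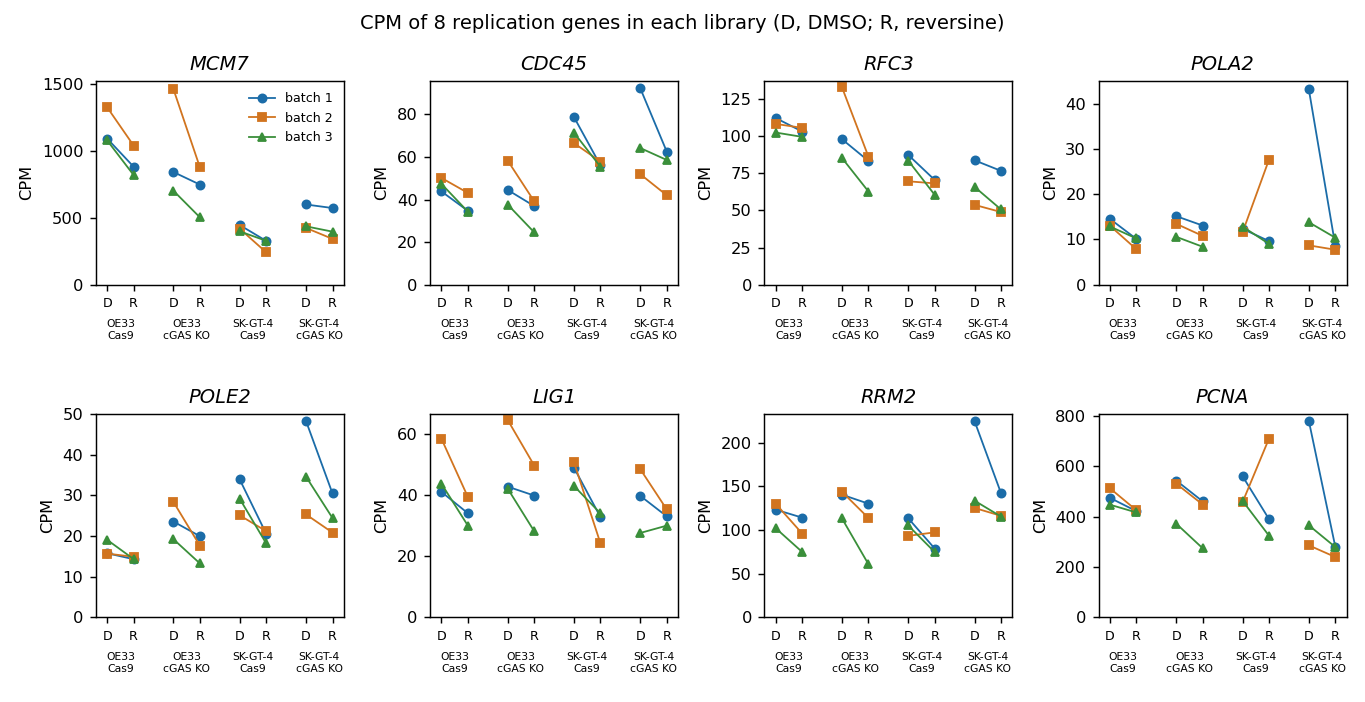
CPM (y axis, from 0) of 8 replication genes in each library, by cell line and genotype, with DMSO (D) and reversine (R) of a batch joined by a line. In OE33 the lines of MCM7, CDC45, RFC3, POLA2, POLE2, LIG1, RRM2 and PCNA go down in every batch of both genotypes, and in SK-GT-4 single libraries of POLA2 and PCNA stand far above the others.

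No difference of the reversine effect between OE33 genotypes passed the test. For the difference of the effects, Cas9 minus cGAS KO, 0 of 41 genes passed an adjusted p of 0.01 by edgeR or DESeq2, next to 0% and 0% of all genes. Before adjustment, at p under 0.05, 2 of 41 did (RFC3 at 0.35 ± 0.14 and GINS3 at 0.49 ± 0.20), next to 3.52%. The median over the 41 was 0.02, beside -0.01 over all genes. Genes whose difference had the same sign in 3 of 3 batches reached 0.39 for GINS4 at the upper end and -0.15 for E2F1 and -0.12 for CHAF1B at the lower end. The median SE of these differences was 0.16, and the 12 genes named throughout lay from -0.15 (E2F1) to 0.21 (CCNE2). Without cGAS KO DMSO batch 2, the median was 0.02, and 0 of 41 passed 0.01.

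In SK-GT-4 Cas9 cells, replication gene mRNA was also lower in reversine, with a lower median than in OE33 that the test between the lines did not resolve. The mean log2 CPM of the 41 genes was 6.15, 6.04 and 6.06 in DMSO and 5.78, 5.42 and 5.72 in reversine, and these groups did not overlap. Log2 fold changes were below 0 for 39 of 41, with a median of -0.46 beside 0.02 over all 22782 genes tested. Of 13220 genes of at least 1 CPM, 54.3% were below 0. No gene of the whole table was called in this comparison by edgeR at 0.01 or 0.05 (0% and 0%), and DESeq2 called 0 of the 41, next to 0%. With p under 0.05 and no adjustment, 17 of 41 were lower and none higher, next to 0.878% of all genes lower. 30 of 41 were lower in 3 of 3 batches, next to 14.7%, and for 22 of 41 every reversine library lay below every DMSO library, next to 3.9%. The mitochondrial share was 1.29%, 2.97% and 3.24% in DMSO and 1.55%, 2.25% and 3.94% in reversine.

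The size of this effect rested in part on batch 2 of reversine. MCM2 had 181, 144 and 143 CPM in DMSO and 153, 26.1 and 126 CPM in reversine, and GINS4 had 29.2, 19.3 and 22.7 CPM and 22.4, 3.47 and 19.2 CPM. POLA1 had 19.3, 20.6 and 21.7 CPM and 15.6, 5.26 and 16.8 CPM. In each of these genes, the reversine library of batch 2 stood far below the other 5, and their fold changes of -0.92, -0.96 and -0.85 were among the lowest. The same library was high for other genes, such as POLA2 with 12.4, 11.5 and 12.9 CPM in DMSO and 9.63, 27.7 and 9.02 CPM in reversine, and PCNA with 560.1, 457 and 462 CPM and 389.7, 709 and 324 CPM. In this library, the 20 longer replication genes deviated by -0.69 (log2) relative to the 21 shorter ones, in the direction of the long against short genes of the whole table. The 12 genes named throughout lay from -0.92 (MCM2) to -0.11 (TK1) with all libraries. The part that RNA quality or transcript length played was not tested.

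Without both libraries that stood apart, log2 fold changes of all 41 genes were below 0 in these Cas9 cells and had a range from -0.69 for POLE2 to -0.0034 for RPA2. The median was -0.33, beside 0.00 over all genes, a comparison that rests on 2 complete pairs. At an adjusted p of at most 0.01, 4 of 41 were called lower, next to 0.072% of all genes. They were POLE2 (-0.69 ± 0.14, adjusted p = 0.000706), GINS2 of the GINS complex (-0.64 ± 0.12, adjusted p = 4.84e-05), PCNA (-0.51 ± 0.11, adjusted p = 0.00138) and RRM2 (-0.50 ± 0.12, adjusted p = 0.00537). At an unadjusted p under 0.05, 32 of 41 were lower, next to 2.64%. MCM2 then had a value of -0.20, GINS4 of -0.30, POLA1 of -0.32 and POLA2 of -0.42. The other genes named throughout lay close together, with CDC45 at -0.42, CDC6 at -0.37, MCM7 at -0.35, CDT1 at -0.32, E2F1 at -0.31, CCNE2 at -0.28, BRCA1 at -0.24 and TK1 at -0.22.

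**Figure D4:**
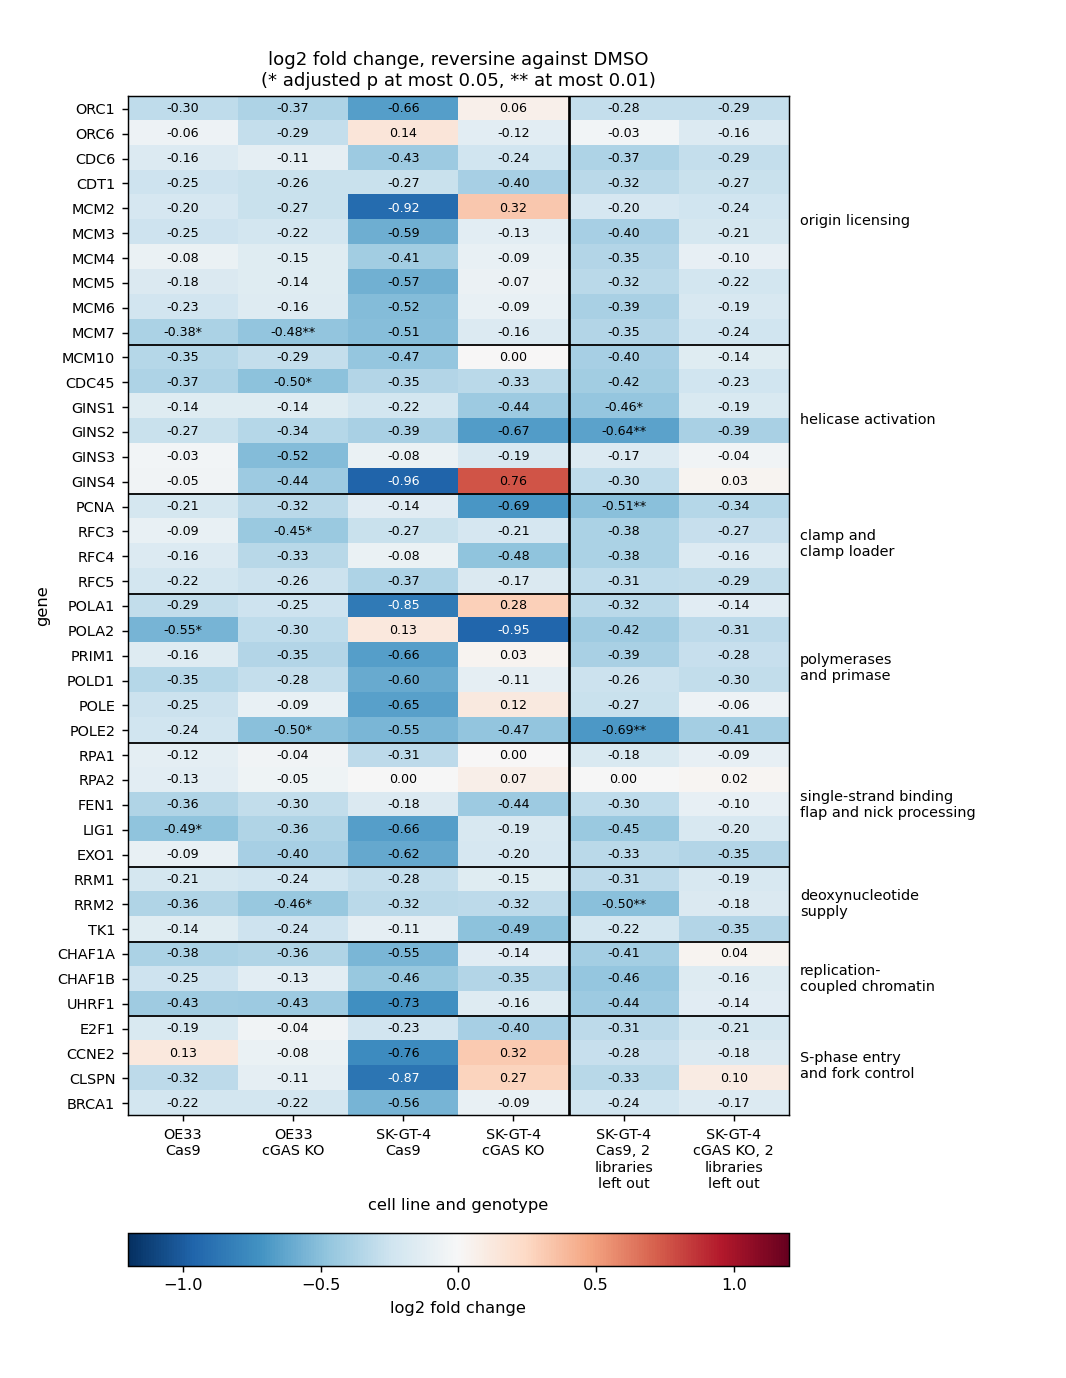
Log2 fold change of each of the 41 replication genes (rows, by role) under reversine against DMSO, in the 4 combinations of line and genotype and, in the last 2 columns, in SK-GT-4 without the 2 libraries that stood apart. Blue marks lower and red higher in reversine. The mixed signs of the SK-GT-4 cGAS KO column, such as 0.76 for GINS4 and -0.95 for POLA2, are mostly gone in the last column, where 37 of 41 values are below 0.

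In SK-GT-4 cGAS KO cells, the median of the replication genes was nearer to 0, and no gene passed the test. The mean log2 CPM of the 41 genes was 5.94, 5.90 and 5.74 in DMSO and 5.77, 5.64 and 5.66 in reversine, lower in 3 of 3 batches with overlapping groups. Log2 fold changes were below 0 for 30 of 41, with a median of -0.16 beside 0.05 over all genes. Of 13220 genes of at least 1 CPM, 44.6% were below 0. Of all genes, 0% were called lower at 0.01 and 0% at 0.05 by edgeR, and DESeq2 called 0 of the 41, next to 0%. Before adjustment, at p under 0.05, 4 of 41 were lower (GINS2, PCNA, POLE2 and TK1), next to 1.36%. 17 of 41 were lower in 3 of 3 batches, next to 12.2%, and 4 of 41 had every reversine library below every DMSO library (CDC6, GINS1, PCNA and E2F1), next to 1.77%. PCNA had 780.0, 286 and 365 CPM in DMSO and 280.5, 239.5 and 279 CPM in reversine (-0.69 ± 0.29, adjusted p = 0.854). TK1 had 851, 443 and 486 CPM and 485, 318 and 424 CPM (-0.49 ± 0.19, adjusted p = 0.854). In both genes, DMSO batch 1 was the highest of the 6 libraries. The mitochondrial share was 1.21%, 5.66% and 11.3% in DMSO and 1.64%, 8.56% and 7.83% in reversine.

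That DMSO library, the other one that leaned to short genes, held the extreme values here. POLA2 had 43.3, 8.70 and 13.8 CPM in DMSO and 8.64, 7.73 and 10.4 CPM in reversine (-0.95 ± 0.45), and GINS4 had 4.04, 16.5 and 14.2 CPM and 20.3, 18.5 and 13.5 CPM (0.76 ± 0.53). MCM2 had 47.6, 126 and 101 CPM and 128, 100.0 and 94.0 CPM (0.32 ± 0.47). DMSO batch 1 was the highest library for POLA2 and the lowest for GINS4 and MCM2. The 12 genes named throughout lay from -0.69 (PCNA) to 0.32 (MCM2). RPA2 was the only gene with a value above 0 in 3 of 3 batches, 0.07 ± 0.17. Without both libraries, 37 of 41 genes were below 0 and the median was -0.19, with no complete pair left in batch 1 of this genotype. At 0.01, 0 of 41 were called, next to 0.0944% of all genes, and 14 of 41 were lower at an unadjusted p under 0.05, next to 3.77%. The lowest values were then those of POLE2 (-0.41), GINS2 (-0.39), TK1 (-0.35), EXO1, an end-resecting exonuclease (-0.35), and PCNA (-0.34). MCM2, POLA1 and CCNE2 changed sign, to -0.24, -0.14 and -0.18. The other named genes had values of -0.29 (CDC6), -0.27 (CDT1), -0.24 (MCM7), -0.23 (CDC45), -0.21 (E2F1), -0.18 (RRM2) and -0.17 (BRCA1).

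For the difference of the reversine effects between SK-GT-4 genotypes, Cas9 minus cGAS KO, 0 of 41 genes passed 0.01 by edgeR or DESeq2, next to 0% and 0% of all genes. With p under 0.05 and no adjustment, 1 of 41 did (GINS4 at -1.72 ± 0.75), next to 4.16%. The median of the 41 was -0.31, beside -0.03 over all genes. Among genes with the same sign in 3 of 3 batches, MCM2 (-1.24) followed GINS4 at the lower end, the 12 genes named throughout lay from -1.24 (MCM2) to 0.56 (PCNA), and TK1 (0.38) stood at the upper end. These values combine the libraries that stood apart, 1 on each side of the difference. Without them, the median was -0.13 with 35 of 41 below 0, GINS4 had a value of -0.33, MCM2 of 0.03, and 0 of 41 passed 0.01. Cas9 cells then had no complete pair in batch 2 and cGAS KO cells none in batch 1, so this difference sets unlike batches against each other.

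The test of the difference of the reversine effects between the lines, OE33 minus SK-GT-4 in Cas9 cells, called 0 of 41 genes by edgeR or DESeq2, next to 0% and 0.00397% of all genes. At an unadjusted p under 0.05, 2 of 41 passed (EXO1 at 0.55 ± 0.27 and CCNE2 at 0.90 ± 0.40), next to 2.46%. GINS4 had the highest value with one sign in 3 of 3 batches, 0.93 ± 0.51, where batches of the lines were matched by number only. The 12 genes named throughout lay from -0.04 (PCNA) to 0.90 (CCNE2). The median was 0.20 beside 0.04 over all genes. Without both SK-GT-4 libraries that stood apart, it was 0.09, with 0 of 41 called. The larger median in SK-GT-4 Cas9 cells was thus not resolved from that in OE33.

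Between cGAS KO and Cas9 cells, no difference in the 41 genes passed 0.01 in either line with all libraries by edgeR. In OE33, 0 of 41 genes were called between the genotypes at 0.01, in DMSO or in reversine, by edgeR, next to 1.47% and 2.84% of all genes. DESeq2 called 2 of 41 in DMSO, next to 3.63%, and 2 of 41 in reversine, next to 5.67%. At 0.05, 2 of 41 were called lower in DMSO (next to 1.77%) and 4 of 41 in reversine (next to 3.27%). Before adjustment, at p under 0.05, 6 of 41 passed in DMSO, next to 17.5%, and 12 of 41 in reversine, next to 21.3%. MCM4 had 248, 282 and 221 CPM in Cas9 DMSO and 167, 235 and 146 CPM in cGAS KO DMSO (-0.51 ± 0.13, adjusted p = 0.033). MCM3 had 257, 289 and 239 CPM and 182, 221 and 169 CPM (-0.49 ± 0.13, adjusted p = 0.0383), without overlap. Both helicase subunits were lower in 3 of 3 batches, and in reversine they had values of -0.58 ± 0.13 (adjusted p = 0.0113) and -0.45 ± 0.13 (adjusted p = 0.0401). GINS3 (-0.76 ± 0.21, adjusted p = 0.0322) and RFC3 (-0.44 ± 0.13, adjusted p = 0.0493) were called at 0.05 in reversine. POLE2 had 15.8, 15.7 and 19.1 CPM in Cas9 DMSO and 23.6, 28.4 and 19.2 CPM in cGAS KO DMSO, and every cGAS KO library lay above every Cas9 library (0.45 ± 0.17, adjusted p = 0.172). E2F1 was the other gene with this order, at a value of 0.09. The share of all genes with this order is not given, so it is not read as particular to the replication genes. RRM2 had a value of 0.13 in DMSO, and E2F1 and POLD1 of 0.23 and 0.11 in reversine, each above 0 in 3 of 3 batches. Medians of the 41 were -0.10 in DMSO and -0.15 in reversine, beside -0.01 and -0.02 over all genes. The 12 genes named throughout lay from -0.31 (CDT1) to 0.13 (RRM2) in DMSO and from -0.41 (MCM7) to 0.23 (E2F1) in reversine. Without cGAS KO DMSO batch 2, MCM4 (-0.59, adjusted p = 0.00912) and CHAF1A (-0.79, adjusted p = 0.00845) were called lower in DMSO at 0.01, 2 of 41 next to 4.77% of all genes called in either direction. In reversine, MCM4 (-0.59), GINS3 (-0.76) and RFC3 (-0.45) were then called lower, 3 of 41 next to 6.69%, with adjusted p between 0.00178 and 0.0092.

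**Figure D5:**
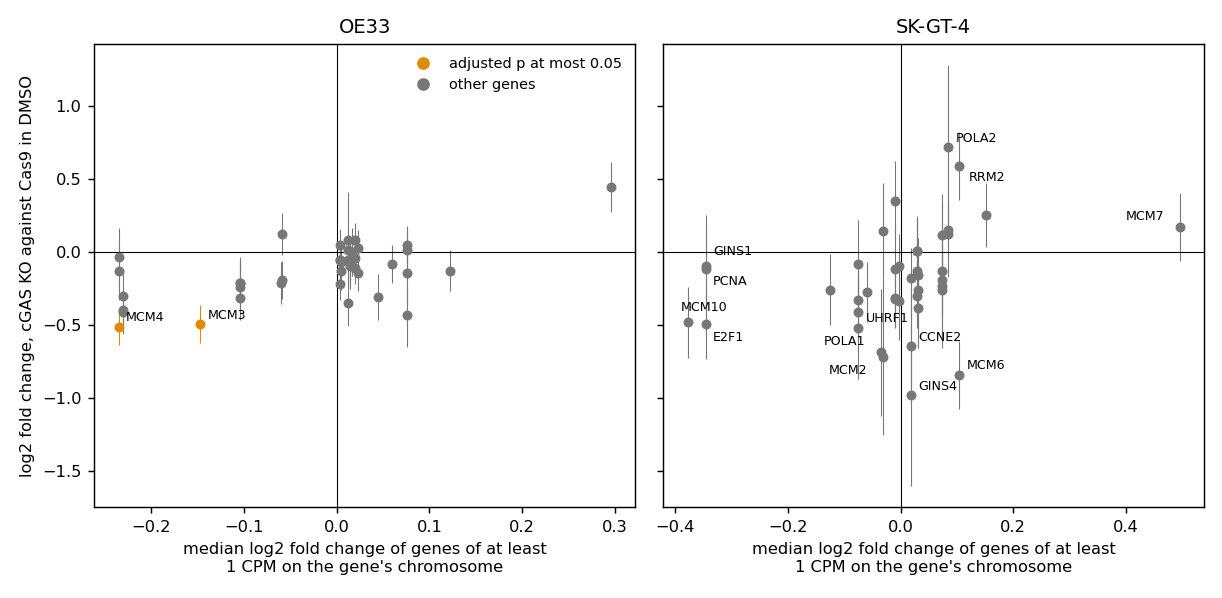
Log2 fold change of each replication gene between cGAS KO and Cas9 cells in DMSO (y axis, ± SE) against the median of the genes of at least 1 CPM on its chromosome (x axis), in OE33 and SK-GT-4. MCM3 and MCM4 in OE33 lie on chromosomes whose medians are -0.15 and -0.24, and in SK-GT-4 the chromosome medians reach from -0.38 to 0.50.

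Median differences between the genotypes varied from chromosome to chromosome, and the part this played for single replication genes was not tested. In OE33 DMSO, the median log2 fold change of genes of at least 1 CPM was -0.24 on chromosome 8, which holds MCM4, GINS4 and CCNE2, -0.15 on chromosome 6, which holds MCM3, and -0.23 on chromosome 12, which holds RFC5, PRIM1 and POLE. It was 0.30 on chromosome 14, which holds POLE2. In SK-GT-4 DMSO, it was 0.50 on chromosome 7, which holds MCM7, -0.35 on chromosome 20, which holds PCNA, E2F1 and GINS1, and -0.38 on chromosome 10, which holds MCM10. A difference in gene dose and an effect of cGAS loss cannot be told apart from mRNA of 1 clone per genotype.

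In SK-GT-4, 0 of 41 genes were called between genotypes at 0.01 by edgeR, next to 1.76% of all genes in DMSO and 1.41% in reversine, and 0 were called lower at 0.05, next to 2.03% and 1.99%. DESeq2 called 1 of 41 in DMSO at 0.01, next to 6.52%, and 0 in reversine, next to 6.25%. With p under 0.05 and no adjustment, 2 of 41 passed in DMSO, next to 17.5%, and 4 of 41 in reversine, next to 18.4%. MCM6 had 205, 152 and 141 CPM in Cas9 DMSO and 87.3, 104 and 83.6 CPM in cGAS KO DMSO, without overlap (-0.84 ± 0.23, adjusted p = 0.069). RRM2 had 113, 93.3 and 105 CPM and 225, 125 and 134 CPM (0.59 ± 0.24, adjusted p = 0.214), with every cGAS KO library above every Cas9 library. In reversine, RRM2 (0.56 ± 0.24) and MCM7 (0.53 ± 0.23) were higher and E2F1 (-0.68 ± 0.24) and PCNA (-0.82 ± 0.37) lower in cGAS KO cells in 3 of 3 batches, with adjusted p between 0.141 and 0.266. In DMSO, GINS4 had the lowest value (-0.98) and POLE2 a value of 0.26, each with one sign in 3 of 3 batches and neither past the test. The 12 genes named throughout lay from -0.72 (MCM2) to 0.59 (RRM2) in DMSO and from -0.82 (PCNA) to 0.56 (RRM2) in reversine. Medians of the 41 were -0.19 in DMSO and 0.05 in reversine, beside 0.03 and -0.03 over all genes, and the batch medians in reversine were -0.02, 0.26 and -0.06. Without both libraries that stood apart, medians of the 41 were -0.24 and -0.07, beside -0.02 and -0.02. Then MCM6 (-0.72, adjusted p = 0.00144) and E2F1 (-0.74, adjusted p = 0.000769) were called lower in DMSO, 2 of 41 next to 13.3% of all genes called in either direction. In reversine, MCM6 (-0.61, adjusted p = 0.00756) was called lower and RRM2 (0.74, adjusted p = 0.00104) higher, 2 of 41 next to 11.6%.

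Genes around replication were read beside the 41. Of 34 further replication factors, 29 were below 0 under reversine in OE33 Cas9 cells and 30 in cGAS KO cells, with medians of -0.16 and -0.20. At 0.01, 0 of them were called in either genotype, next to 0.157% and 0.152% of all genes called lower. Of 32 further nucleotide, chromatin and E2F target genes, 26 and 32 were below 0, with medians of -0.14 and -0.20. Among them, CCNA2, the cyclin of S phase and G2, fell in both genotypes, by log2 fold changes of -0.45 (adjusted p = 0.00897) and -0.46 (adjusted p = 0.00791). The share of all genes called lower at 0.01 was again 0.157% and 0.152%, and the count of this list called is not given. In OE33, the 25 genes of G2 and mitosis had a lower median than the 41 in Cas9 cells (-0.34) and a like median in cGAS KO cells (-0.29). Of these 25, 4 and 2 were called lower at 0.01, next to the same 0.157% and 0.152%. CDC20, an activator of the anaphase-promoting complex, fell by 0.56 and 0.51 on the log2 scale, and the mitotic kinase PLK1 fell by 0.54 and 0.53. In SK-GT-4, the G2 and mitosis genes had medians of -0.34 in Cas9 and -0.14 in cGAS KO cells, and -0.27 and -0.25 without the 2 libraries that stood apart. The shares of cells in S phase, G2 or mitosis were not measured.

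Of 17 G1 control genes tested in OE33, CDKN2B, an inhibitor of the kinases CDK4 and CDK6, rose in cGAS KO cells (0.86, adjusted p = 0.00226) and had a value of 0.68 in Cas9 cells (adjusted p = 0.0214). In cGAS KO cells, 0.343% of all genes were called higher at 0.01, and the count of this list called is not given. In OE33 Cas9 and cGAS KO cells, medians of this list were -0.04 and -0.11, while SK-GT-4 cells gave -0.28 and -0.01. Of 16 p53 target genes, 1 rose at 0.01 in OE33 Cas9 cells, next to 0.299% of all genes, and 1 in cGAS KO cells, next to 0.343%. This was the stress cytokine GDF15 in both, with log2 fold changes of 0.71 (adjusted p = 0.00038) and 0.72 (adjusted p = 0.000371). The medians of the p53 list stayed near 0 in OE33, at 0.04 and -0.03, and were 0.17 and 0.13 in SK-GT-4, where no gene of either list was called.

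Most of the 41 genes correlated with the mean of the others across the libraries of OE33. Over the 12 libraries of a line, which share treatments and batches, the median Pearson correlation of log2 CPM over 820 pairs of the genes was 0.66 for OE33 libraries and 0.33 for those of SK-GT-4. It was 0.47 over the 10 SK-GT-4 libraries left without both that stood apart, and the difference between the lines was not tested. Against the mean of the other 40 genes, MCM2 followed most closely in OE33 (r = 0.97) and POLE least (r = 0.15). In SK-GT-4, CDC6 followed most closely (r = 0.91) and ORC6 least (r = -0.15). The correlation was above 0.5 for 37 of 41 genes in OE33 and 21 of 41 in SK-GT-4, or 30 of 41 without both libraries, where MCM5 followed most closely (r = 0.92) and RRM2 least (r = -0.07). The share of all genes above 0.5 is not given, so these counts are not read as particular to the 41. The other genes whose log2 CPM was most like the mean of the 41 were PAICS (r = 0.97), SFPQ (r = 0.968) and PAGR1 (r = 0.964) in OE33, among 12303 genes of at least 1 CPM, and NUP93 (r = 0.866), RIMKLB (r = 0.863) and HNRNPR (r = 0.858) in SK-GT-4, among 13397 genes. These correlations are descriptions over libraries that vary in treatment, genotype, batch and depth.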

How the data were processed

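Poly(A) RNA of 24 libraries was sequenced, and the authors aligned the reads with HISAT2 2.0.5 to GRCh38 and deposited 1 table of raw gene counts made with featureCounts 1.5.0, per the submitters' processing notes. The annotation release and the strand setting are not given in the sources used here. All 24 count columns were matched to samples by name, and 0 columns were left without a sample. The 41 genes were found by gene name. Members, gene lists and tests were chosen with earlier results of these data known.

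Genes with a total of at least 5 counts and a count in at least 4 libraries were kept, and edgeR 4.0.16 in R 4.3.3 fitted all of them with TMM factors, the quasi-likelihood test and Benjamini-Hochberg adjustment, with calls where the adjusted p did not exceed 0.01. The effect of reversine, and its difference between genotypes, was fitted within each line with a block per genotype and batch. Genotypes were compared with batch as a block, the lines without a block, and the difference of the reversine effect between lines with a block per line, genotype and batch. The deviations of DMSO and reversine libraries of the same genotype and batch correlated at 0.43 to 0.81 in OE33 and 0.10 to 0.72 in SK-GT-4. The study's methods call the 3 libraries of a group biological replicates. No 2 libraries held identical counts, and all 24 replicate pairs differed by more than counting noise (chi-square per gene from 18.5 to 572).

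Log2 CPM used a prior count of 2, and RPKM the gene lengths of the table. Named genes were those called (4 up and 4 down where over 8 were), the 2 highest and 2 lowest with one sign in 3 of 3 batches, 12 genes named in every comparison, the extremes by RPKM, and the 3 other genes most like the mean of the 41. Genes named for a call at 0.05, at an unadjusted p or without a library were added after their values were seen. Alternatives were DESeq2 1.42.0, other filters, other blocks, an adjusted p of 0.05, and leaving out batches or libraries. The correlation without 2 SK-GT-4 libraries was added after the data were seen. The scripts were tested on simulated counts.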

Additional observations from a re-analysis of the deposited data

How the results depend on the processing

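With a paired analysis, the choice of replicate block decided 1 call. The 1 replication gene called under reversine in OE33 cGAS KO cells became 0 with a batch block shared by both genotypes and 0 with no replicate block, and the block changed no other count of called replication genes by over 1.5 times. In the comparison of the lines, a shared batch block gave 6 called genes in place of 5.

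With the threshold on the adjusted p at 0.05, the counts of called genes became 3 in OE33 Cas9 and 5 in OE33 cGAS KO cells under reversine, 2 and 4 between OE33 genotypes in DMSO and in reversine, and 10 between the lines. With no filter they became 1 and 5 under reversine in OE33 Cas9 and cGAS KO cells, and 2 and 2 between OE33 genotypes, while filterByExpr gave 0 in OE33 cGAS KO cells. DESeq2 gave 2 and 2 between OE33 genotypes, 1 between SK-GT-4 genotypes in DMSO, and 8 between the lines. Without OE33 cGAS KO DMSO batch 2, 9 genes were called under reversine in OE33 Cas9 cells, and 2 and 3 between OE33 genotypes in DMSO and in reversine. The shares of all genes moved too. In OE33 Cas9 cells, 0.157% were called lower under reversine with all libraries, and 1.77% without this library. Between OE33 genotypes in DMSO, 1.47% were called by edgeR, 3.63% by DESeq2 and 4.77% without this library. For settings whose share of all genes is not given in this report, counts are not read as particular to the replication genes. The cause of these shifts was not tested.

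Leaving out 1 batch at a time gave 0 to 1 called genes in OE33 cGAS KO cells under reversine and 0 to 2 between the lines. The median of the 41 under reversine then lay between -0.50 and -0.34 in SK-GT-4 Cas9 cells, and the difference between SK-GT-4 genotypes between -0.31 and -0.20. Without SK-GT-4 Cas9 reversine batch 2 alone, these medians were -0.34 and -0.17. Without both SK-GT-4 libraries that stood apart, a setting chosen after seeing the data, they were -0.33 and -0.13, with 4 genes called in SK-GT-4 Cas9 cells under reversine, 2 between SK-GT-4 genotypes in DMSO, 2 in reversine, and 12 between the lines.

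Some single genes without a call changed sign when 1 batch or library was left out. Under reversine in OE33, CCNE2 lay between -0.023 (without batch 1) and 0.31 in Cas9 cells. In OE33 cGAS KO cells, E2F1 reached 0.011 and CCNE2 lay between -0.21 and 0.020, the upper values being without batch 3. In SK-GT-4 Cas9 cells, PCNA lay between -0.52 and 0.063 (without batch 1, and 0.033 without batch 3), and TK1 between -0.23 and 0.0023 (without batch 1). In SK-GT-4 cGAS KO cells without batch 1, MCM2, POLA1 and CCNE2 had values of -0.22, -0.11 and -0.16, rounded alike without DMSO batch 1 alone, and their highest values were 0.66, 0.69 and 0.56 without batch 2. Without both libraries that stood apart, they had values of -0.24, -0.14 and -0.18. BRCA1 there lay between -0.21 and 0.064, the latter without batch 2. The difference between SK-GT-4 genotypes for MCM2 was 0.034 without both libraries.

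The medians of the 41 under reversine stayed below 0 in all 4 combinations of line and genotype under every alternative run. With the chromosome median of genes of at least 1 CPM subtracted, also chosen after seeing the data, the medians between genotypes were -0.10 in DMSO and -0.18 in reversine for OE33, and -0.20 and 0.11 for SK-GT-4. With 3 libraries a group, calls of single genes shifted with 1 library.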
